A study of Mus musculus with 9 samples.

Results

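The genes described here encode 9 enzymes or enzyme subunits of the tricarboxylic acid (TCA) cycle and its cytosolic branch, Cs, Aco1, Idh1, Idh2, Idh3a, Ogdh, Sucla2, Fh1 and Mdh2, measured in mouse macrophages. Every non-control spot that carried one of these 9 names was taken, which gave 12 probes for 9 of the 36483 gene symbols on the array. Of these genes, 7 have a single probe, Fh1 has 2 and Ogdh has 3. All 9 passed the filter on dim probes, which left 16459 genes for testing.

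Messenger RNA was measured in 9 samples from C57BL/6J mice on Agilent single-colour arrays. The controls were 3 samples of macrophages from the peritoneal exudate, called PECs. The other samples were tumour-associated macrophages (TAMs) of a fibrosarcoma, a malignant tumour of connective tissue, divided into 3 F4/80high and 3 F4/80low samples by the macrophage surface protein that Adgre1 encodes. No genotype, treatment or age is given for any group, and the origin of the tumour and the sort gates are not given in the sources used here. The samples of a group are described as biological replicates without a statement on separate animals. The p-values therefore rest on the spread among arrays of a group, part of which may be technical.

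Levels below are log2 intensities relative to the 75th percentile of each array, given for replicates 1, 2 and 3 in that order, and n is 3 arrays per group throughout. Between 36.1% and 38.3% of the 59305 non-control spots were well above background on an array, and none was saturated. All 6 TAM arrays and PEC replicate 1 shared slide 1, while PEC replicates 2 and 3 were on slide 2. Each difference from PECs was therefore also fitted with a slide term and on slide 1 alone, which give the same fold change with different errors. A gene was called when its p-value from limma's moderated test, adjusted over all 16459 genes by the Benjamini-Hochberg method, was under 0.05.

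The TCA cycle runs in the mitochondrial matrix. It joins acetyl-CoA with oxaloacetate to make citrate and oxidises it step by step back to oxaloacetate, which feeds electrons to the respiratory chain. Aco1 and Idh1 encode cytosolic counterparts of enzymes of the cycle, and Idh1 is also found in peroxisomes. Macrophages that respond to bacterial products are known for a rerouted cycle, in which citrate leaves for lipid synthesis or for itaconate and succinate accumulates.

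The following 3 sequences belong to Idh1, Fh1 and Mdh2, which were among the members called between the TAM subsets. The probe of Idh1, the member with the widest range between groups, ends at mm9 chr1:65206035-65206094 on the minus strand. Its capitals mark the stop codon TAA, so the probe reads the last codons and 4 bases of the 3′ untranslated region.

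Idh1 probe: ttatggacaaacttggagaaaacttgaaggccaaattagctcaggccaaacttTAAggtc

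One of the probes of Fh1 covers mm9 chr1:177531659-177534089 on the minus strand. Its 60 bases are spread over 2431 bases of the genome, so it matches joined stretches of the transcript and not a continuous stretch of the chromosome. It is shown because it gives a separate reading of Fh1, with no capitals.

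Fh1 probe: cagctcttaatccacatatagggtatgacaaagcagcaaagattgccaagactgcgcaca

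Mdh2 was called lower in F4/80high TAMs than in PECs, at the edge of the threshold (adjusted p 0.0494), and higher in F4/80low TAMs. The 250 bases before its annotated start lie at GRCm38.p6 chr5:135778399-135778648 on the plus strand, with the sequence taken from RefSeq. The capitals mark 3 copies of TCTCGCGAGA, a palindrome that reads the same on both strands.

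Mdh2 promoter: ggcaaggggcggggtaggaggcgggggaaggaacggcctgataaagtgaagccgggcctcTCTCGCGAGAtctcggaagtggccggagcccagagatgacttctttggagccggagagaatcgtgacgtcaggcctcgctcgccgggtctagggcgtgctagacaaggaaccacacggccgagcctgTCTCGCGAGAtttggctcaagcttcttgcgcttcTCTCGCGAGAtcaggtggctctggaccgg

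Between the copies and the start lie 180, 53 and 19 bases. TCTCGCGAGA is the palindrome of its length that occurs most often in the Mdh2 window. It was picked from there, so that Mdh2 holds it by choice. It was present in the 250-base windows of 128 of 32851 promoters in the table (0.39%), and no other member held it. Of the 8 members with an entry, all 8 held GGGCGG (32.7% of promoters), 5 held CCAAT (33.8%), and Ogdh held CACGTG (6.02%), each searched on both strands. A member counted if any of its promoters held the motif, and Ogdh had 6 promoters, while the percentages count single promoters. No copy of these 3 motifs overlapped TCTCGCGAGA in Mdh2. Idh3a had no entry. The motifs were chosen after the sequences had been seen, and a match is a description of letters, not of a bound site.

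Most members were lower in F4/80high TAMs than in PECs. The test called 6 of 9 lower (Cs, Aco1, Idh1, Idh2, Ogdh and Mdh2) and none higher, where 28% of all tested genes were called lower, 25% higher and 53.1% in either direction. The median log2 fold change was -0.66 over the members and 0.0023 over all genes. The arrays of F4/80high TAMs and PECs did not overlap for 7 of 9 members, which were all lower in F4/80high TAMs, against 65.2% of all genes in either direction. With a slide term 3 members were called (Aco1, Idh1 and Ogdh), and on slide 1 alone, with its single PEC array, 2 were called (Idh1 and Ogdh).

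F4/80low TAMs showed a mixed picture against PECs. Here 4 members were lower (Aco1, Idh1, Ogdh and Sucla2) and 2 were higher (Idh3a and Mdh2), while 29.2% of all genes were called lower, 22.7% higher and 51.9% in either direction. The median log2 fold change of the members was -0.43, beside -0.09 over all genes, and the arrays did not overlap for 6 members, beside 59.2% of all genes. With a slide term, and on slide 1 alone, 3 members stayed past the threshold (Idh1, Ogdh and Mdh2). Without PEC replicate 2 the count was also 3. The split depended on the scaling: with arrays centred on their median, 4 members were lower and none was higher, and in the deposited value table, which holds 7 members, 3 were higher and 2 lower.

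Between the TAM subsets, 8 of 9 members had lower values in F4/80high TAMs, and 4 passed the test (Idh1, Idh2, Fh1 and Mdh2). None was called higher in F4/80high TAMs. Of all genes, 14% were called lower in F4/80high TAMs, 18.6% higher and 32.6% in either direction. The members' median was -0.75, beside 0.08 over all genes, and the arrays did not overlap for 6 members, beside 46.7% of all genes. The count was 2 without F4/80high replicate 2 or without F4/80low replicate 1. It was 1 (Mdh2) with arrays centred on their median and 7 with quantile normalization. The comparisons with PECs share the PEC arrays, and all 3 comparisons share arrays pairwise.

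**Figure D1:**
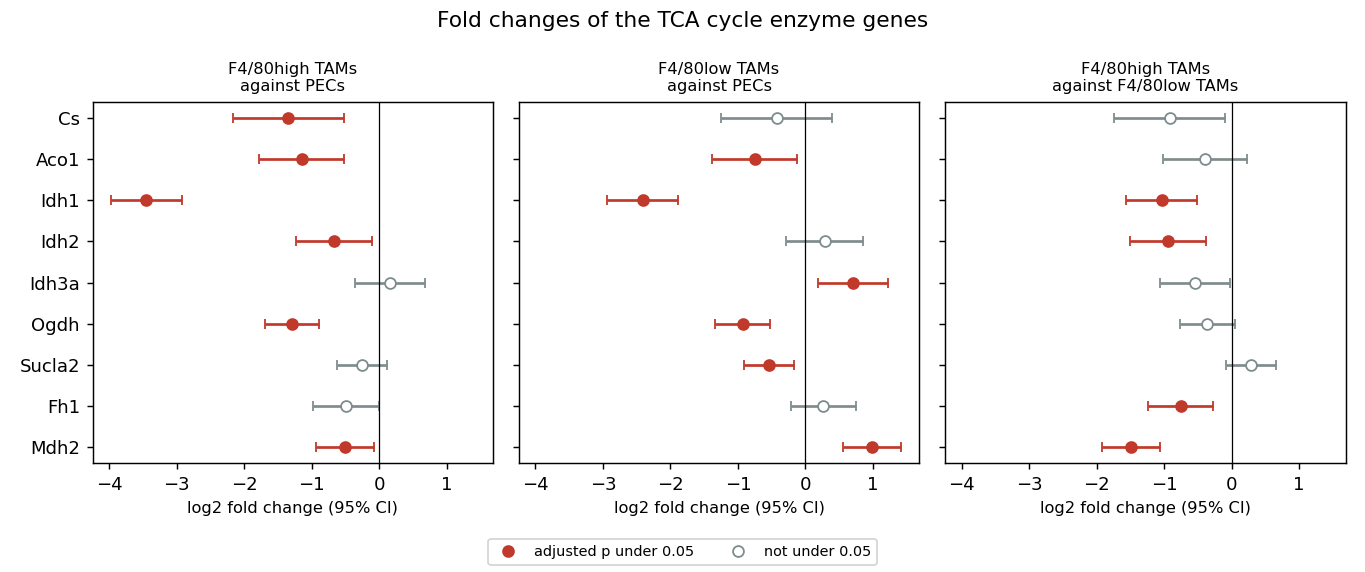
Log2 fold changes of the 9 genes (x axis) in the 3 comparisons, with 95% confidence intervals from limma; filled points have an adjusted p under 0.05. All but Idh3a lie below 0 in F4/80high TAMs against PECs, with Idh1 farthest at -3.45, and Mdh2 lies on opposite sides of 0 in the 2 TAM subsets.

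Transcripts that mark cell types also differed between the groups. Of 8 macrophage markers, all 8 were well above background on every PEC and F4/80high array. Mertk was above background on no F4/80low array, and the other 7 were above it on all of them. Of the 8, 4 were called lower and 1 higher in F4/80low TAMs against PECs, and 5 were called higher in F4/80high than in F4/80low TAMs. Lyz2, the lysozyme of myeloid cells, fell by 2.72 in F4/80low TAMs against PECs (adjusted p 0.000734) and was 2.45 higher in F4/80high than in F4/80low TAMs (adjusted p 0.00216). Adgre1, whose protein defined the sort, was 3.05 higher in F4/80high TAMs, which checks the labels. The 11 measured neutrophil markers were all above background on every F4/80low array, and their summed level (linear, in units of the 75th percentile) was 1949 to 8275 there, 224 to 330 in F4/80high TAMs and 119 to 155 in PECs. In F4/80low TAMs against PECs, 10 of these 11 were called higher. Ngp, Retnlg and Cxcr2 were above background on no PEC array, and Cxcr2 and Mmp8 on no F4/80high array.

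Of 9 tested T cell and NK cell markers, 8 were called higher and 1 lower in F4/80low TAMs against PECs. The summed level of the 12 measured markers was 44.4 to 84.9 in F4/80low TAMs, 18.5 to 21.6 in F4/80high TAMs and 77.8 to 98.6 in PECs. The marker that was lower, Il7r, made up 67.6 to 88.9 of the PEC sum, and without it the other 11 summed to 42.5 to 77.7 in F4/80low TAMs, 11.31 to 14.97 in F4/80high TAMs and 9.71 to 13.49 in PECs. Of the 12 measured markers, 4 were above background on every PEC array and 4 on every F4/80high array. In each of these groups 7 were above it on no array, Cd3d and Cd3g among them. None of 5 B cell markers was above background on all arrays of a group. Of 4 tested dendritic cell markers, 3 were higher than in PECs in either TAM subset, but 1 of those in F4/80low TAMs, Zbtb46, was above background on no F4/80low or PEC array. Of 4 tested stromal markers, 1 was higher in either subset and 1 was lower in F4/80high TAMs. The part of these cells in the members' levels was not tested, and in bulk samples fewer cells of a type cannot be told apart from less RNA per cell. Beside the marker counts, 53.1% and 51.9% of all genes were called in F4/80high and F4/80low TAMs against PECs, and 32.6% between the subsets.

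**Figure D2:**
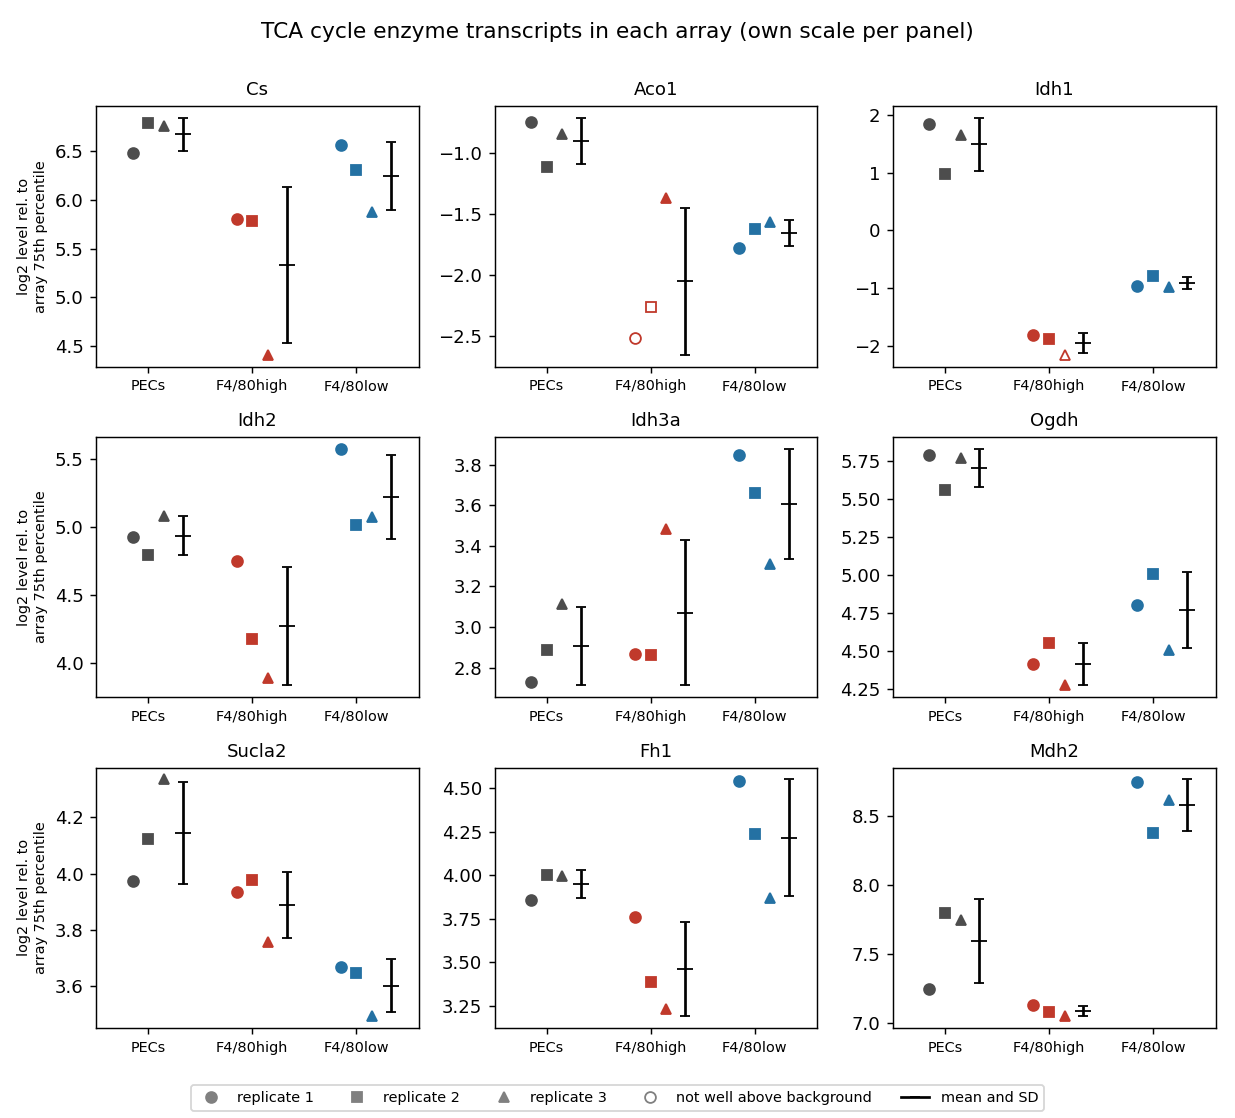
Log2 level relative to the array's 75th percentile (y axis, own scale in each panel) of each of the 9 genes in PECs, F4/80high TAMs and F4/80low TAMs; symbols mark replicates, open symbols a spot not well above background, and bars the mean and SD of 3 arrays. Idh1 in PECs lies at 0.98 to 1.85, above every TAM array, and Mdh2 in F4/80low TAMs lies at 8.38 to 8.74, above every other array.

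Cs encodes citrate synthase, the enzyme that opens the cycle, and its transcript was lower in F4/80high TAMs than in PECs. Its probe lies at mm9 chr10:127799428-127799487. The Cs level was 6.48, 6.79 and 6.76 in PECs, 5.80, 5.79 and 4.41 on the F4/80high arrays, and 6.57, 6.30 and 5.88 on the F4/80low arrays. The F4/80high arrays lay below all others, and the F4/80low arrays overlapped the PECs. The F4/80high level was 2.54-fold lower than that of PECs (-1.35 on the log2 scale, SE 0.36, adjusted p 0.0123). Much of the spread came from F4/80high replicate 3: without it the value was -0.88 (adjusted p 0.0169). With a slide term the value was -1.15 and no longer passed the test (adjusted p 0.136, and 0.178 on slide 1 alone).

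The Cs difference of F4/80low TAMs from PECs did not pass the test (log2 fold change -0.43, 95% confidence interval -1.25 to 0.40, adjusted p 0.35). Between the subsets the value was -0.92, which missed the threshold in the unpaired fit (adjusted p 0.0846). With the replicate number as a block over the 6 TAM arrays it passed (adjusted p 0.0455), as it did after quantile normalization (-1.17, adjusted p 0.023) and in the deposited value table (-1.18, adjusted p 0.0235).

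Aco1 encodes the cytosolic aconitase, which also acts as iron regulatory protein 1 when it lacks its iron-sulphur cluster. Its probe lies at mm9 chr4:40145780-40145839 and was dim. The Aco1 level was -0.75, -1.11 and -0.85 in PECs, -2.51, -2.26 and -1.37 on the F4/80high arrays, and -1.77, -1.62 and -1.57 on the F4/80low arrays. Both TAM subsets lay below every PEC array and overlapped each other, and in F4/80high TAMs replicate 3 alone was well above background.

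Aco1 fell by 1.15 on the log2 scale in F4/80high TAMs (SE 0.28, adjusted p 0.00718). On the F4/80low arrays it fell by 0.75 (SE 0.28, adjusted p 0.0461). With normexp background correction these values were -0.21 and -0.075, neither past the threshold. In the deposited value table they were -0.37 and -0.29, both past it (adjusted p 0.00436 and 0.015). On slide 1 alone, with its single PEC array, they were -1.30 and -0.91. With a slide term the F4/80high value passed (adjusted p 0.0398) and the F4/80low value did not (adjusted p 0.128). The F4/80low call was also lost with no filter (adjusted p 0.064) and without any one of the 3 PEC or 3 F4/80low arrays (adjusted p 0.0605 to 0.115). Between the subsets the value was -0.39 (adjusted p 0.32). It passed the test without F4/80high replicate 3 (adjusted p 0.0276), but no F4/80high array left was then well above background, so that its size is not given.

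Idh1 encodes the cytosolic and peroxisomal isocitrate dehydrogenase, which makes NADPH. It showed the widest range of the members and fell in both TAM subsets. The Idh1 level was 1.85, 0.98 and 1.66 in PECs, -1.82, -1.88 and -2.16 on the F4/80high arrays, and -0.96, -0.80 and -0.99 on the F4/80low arrays. The 3 groups did not overlap, and every PEC array lay above every TAM array by more than 1 log2 unit. Replicate 3 of F4/80high TAMs was not well above background.

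Idh1 was 10.9-fold lower in F4/80high TAMs than in PECs (log2 fold change -3.45, SE 0.23, adjusted p 4.98e-06). It was 5.31-fold lower in F4/80low TAMs (log2 fold change -2.41, SE 0.23, adjusted p 5.1e-05). Both calls stood in every alternative that gave a value, and on slide 1 alone the values were -3.80 and -2.77. The size depended on the background: with normexp correction, which adds an offset of 50 to every signal, they were -1.73 and -1.42. F4/80high TAMs lay below F4/80low TAMs by 1.04 (SE 0.23, adjusted p 0.00855), a difference that missed the threshold with normexp correction (-0.32, adjusted p 0.172) and with median centring (-0.72, adjusted p 0.065).

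Idh2 encodes the mitochondrial NADP-dependent isocitrate dehydrogenase, with its probe at mm9 chr7:87239736-87239795. The Idh2 level was 4.93, 4.80 and 5.08 in PECs, 4.75, 4.17 and 3.89 on the F4/80high arrays, and 5.58, 5.02 and 5.07 on the F4/80low arrays. The F4/80high arrays were the lowest and overlapped neither other group, while the F4/80low arrays overlapped the PECs. The difference between the subsets was -0.95 (SE 0.25, adjusted p 0.0177). It missed the threshold with median centring (-0.63, adjusted p 0.163) and without F4/80high replicate 2, F4/80high replicate 3 or F4/80low replicate 1 (adjusted p 0.0531 to 0.0627).

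Against PECs, Idh2 in F4/80high TAMs stood at the edge of the threshold (log2 fold change -0.66, SE 0.25, adjusted p 0.0489). That call was lost on slide 1 alone at the same value (adjusted p 0.246), with median centring (-0.82, adjusted p 0.0617), with no filter (adjusted p 0.091) and without any one PEC array, F4/80high replicate 2 or F4/80high replicate 3 (adjusted p 0.0727 to 0.164). The value of Idh2 in F4/80low TAMs was 0.28 (95% confidence interval -0.28 to 0.85, adjusted p 0.366).

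Idh3a encodes the catalytic alpha subunit of the NAD-dependent isocitrate dehydrogenase, the enzyme of the cycle proper. Its probe lies at mm9 chr9:54451368-54451427. The Idh3a level was 2.73, 2.88 and 3.11 in PECs, 2.87, 2.86 and 3.48 on the F4/80high arrays, and 3.85, 3.66 and 3.31 on the F4/80low arrays. The F4/80low arrays lay above every PEC array, and the F4/80high arrays overlapped both other groups. Idh3a was thus the only one of the 3 isocitrate dehydrogenase genes among the members that was called higher in a TAM subset.

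Idh3a rose by 0.70 in F4/80low TAMs (SE 0.23, adjusted p 0.03), a value that fell to 0.23 with median centring (adjusted p 0.562). Within slide 1 it was 0.88 (adjusted p 0.109), and the call was lost without PEC replicate 1 or 2 or F4/80low replicate 1 or 2 (adjusted p 0.0728 to 0.0862). In F4/80high TAMs the value against PECs was 0.16 (95% confidence interval -0.36 to 0.68, adjusted p 0.581). Between the subsets it was -0.54 (adjusted p 0.106), and -0.74 without F4/80high replicate 3 (adjusted p 0.0392).

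Ogdh encodes the E1 subunit of the 2-oxoglutarate dehydrogenase complex, which makes succinyl-CoA. Its brightest probe, at mm9 chr11:6256511-6256570, fell in both TAM subsets. Its level was 5.79, 5.56 and 5.77 in PECs, 4.41, 4.55 and 4.27 on the F4/80high arrays, and 4.80, 5.00 and 4.51 on the F4/80low arrays. Every PEC array lay above every TAM array, and the subsets overlapped. Against PECs, the F4/80high arrays gave -1.29 on the log2 scale (SE 0.18, adjusted p 0.000316). The F4/80low arrays gave -0.93 (SE 0.18, adjusted p 0.00245). Both calls stood in every alternative run, including slide 1 alone (-1.37 and -1.02). Between the subsets the value was -0.36 (adjusted p 0.161).

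The 3 probes of Ogdh did not give the same reading. A neighbouring probe at chr11:6256583-6256642 had log2 fold changes of -1.21 and -1.11 against PECs (adjusted over probes, 0.000286 and 0.000608). The third probe, at chr11:6258910-6258969, begins 2267 bases farther along the gene. Its level was 3.90, 2.66 and 3.15 in PECs, 3.91, 3.87 and 4.05 on the F4/80high arrays, and 2.87, 3.46 and 3.12 on the F4/80low arrays. At this probe the F4/80high arrays were not below the PECs, and PEC replicate 1 stood above the other PEC arrays.

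On the F4/80high arrays the third Ogdh probe gave 0.71 over PECs (SE 0.30, adjusted p 0.0737). On slide 1 alone the value was 0.041 (adjusted p 0.929). Without PEC replicate 1, which leaves PEC arrays of slide 2 against TAM arrays of slide 1, it was 1.04 (adjusted p 0.00732). Against F4/80low TAMs it gave 0.80 (adjusted p 0.0709), which passed the test with the replicate number as a block over the TAM arrays (adjusted p 0.0444) and on slide 1 alone (adjusted p 0.0267). With the mean of all 3 probes in place of the brightest, Ogdh had a value of -0.60 in F4/80high TAMs against PECs (adjusted p 0.0235). No source used here assigns the probes to different transcripts.

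**Figure D3:**
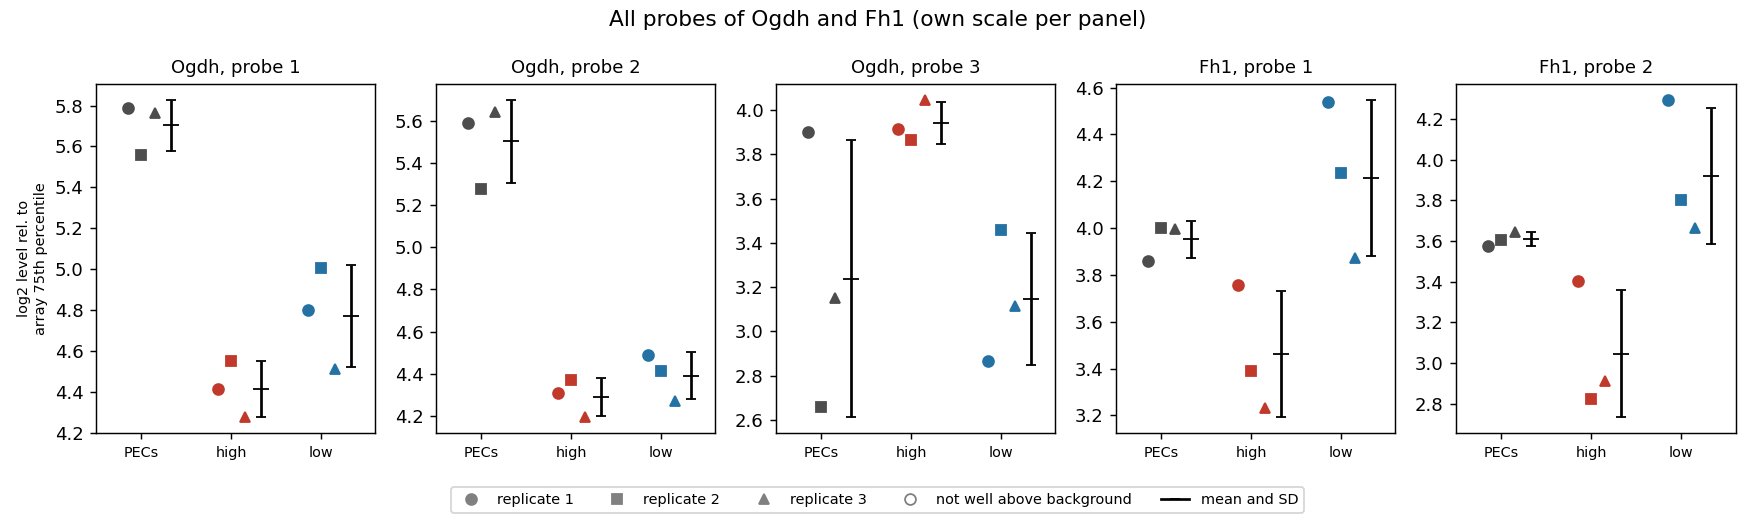
Log2 level (y axis, own scale in each panel) at each probe of Ogdh and Fh1 in the 3 groups, with symbols for replicates and bars for the mean and SD of 3 arrays; Ogdh probe 3 is the one 2267 bases farther along, and Fh1 probe 2 is the one whose sequence is printed. Ogdh probes 1 and 2 are lower on every TAM array than on any PEC array and probe 3 is not, while both Fh1 probes place F4/80high TAMs below F4/80low TAMs.

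Sucla2 encodes the ADP-forming beta subunit of succinyl-CoA ligase, which makes succinate, with its probe at mm9 chr14:73995311-73995370. The Sucla2 level was 3.97, 4.12 and 4.34 in PECs, 3.94, 3.98 and 3.76 on the F4/80high arrays, and 3.67, 3.65 and 3.49 on the F4/80low arrays. It was the only member whose lowest arrays were those of F4/80low TAMs, which overlapped neither other group. Its log2 fold change there against PECs was -0.54 (SE 0.16, adjusted p 0.0202). The call was lost on slide 1 alone (-0.37, adjusted p 0.274), with quantile normalization (-0.34, adjusted p 0.0656) and without PEC replicate 2, PEC replicate 3 or F4/80low replicate 3 (adjusted p 0.0516 to 0.0835). The other comparisons gave -0.25 in F4/80high TAMs against PECs (95% confidence interval -0.62 to 0.11) and 0.29 between the subsets (-0.08 to 0.65).

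Fh1 encodes fumarase, which hydrates fumarate to malate. At its brighter probe, mm9 chr1:177531530-177531589, the level was 3.86, 4.0004 and 3.996 in PECs, 3.76, 3.39 and 3.23 on the F4/80high arrays, and 4.54, 4.23 and 3.87 on the F4/80low arrays. At the probe printed above it was 3.58, 3.61 and 3.65, then 3.40, 2.82 and 2.91, then 4.30, 3.80 and 3.66 in the same order of groups. At either probe the F4/80high arrays lay below all other arrays.

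The log2 fold change of Fh1 between the subsets was -0.75 at the brighter probe (SE 0.21, adjusted p 0.0244) and -0.87 at the other (adjusted p 0.0152). The first missed the threshold with median centring (-0.44, adjusted p 0.287), with no filter, with the TAM groups fitted alone and without F4/80high replicate 2 or 3 or F4/80low replicate 1 or 2 (adjusted p 0.0588 to 0.0845). The second missed it with median centring (-0.56, adjusted p 0.193) and without F4/80high replicate 2 or 3 (adjusted p 0.0633 and 0.0526). Against PECs, F4/80high TAMs gave -0.49 (adjusted p 0.0804) and -0.56 (adjusted p 0.0578). Both passed with quantile normalization (adjusted p 0.0471 and 0.0474) and with normexp correction (adjusted p 0.0298 and 0.0114). Without F4/80high replicate 1 both also passed, at -0.64 (adjusted p 0.0466) and -0.74 (adjusted p 0.0257). The first passed in the deposited value table (adjusted p 0.0456). The second passed with a replicate block (adjusted p 0.0491) and with the 2 groups fitted alone (adjusted p 0.0411). With a slide term neither passed (adjusted p 0.352 and 0.242). F4/80low TAMs gave 0.26 (95% confidence interval -0.22 to 0.75).

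Mdh2 encodes the mitochondrial malate dehydrogenase, which closes the cycle by remaking oxaloacetate. Its probe lies at mm9 chr5:136266157-136266216. The Mdh2 level was 7.25, 7.79 and 7.74 in PECs, 7.13, 7.08 and 7.05 on the F4/80high arrays, and 8.74, 8.38 and 8.62 on the F4/80low arrays. The 3 groups did not overlap, with F4/80low TAMs highest and F4/80high TAMs lowest. PEC replicate 1, the PEC array that shares slide 1 with the TAM arrays, was the lowest of its group and close to the F4/80high arrays.

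F4/80high TAMs had 2.81-fold less Mdh2 than F4/80low TAMs (log2 fold change -1.49, SE 0.19, adjusted p 0.00051), a call that stood in every alternative run. F4/80low TAMs lay 0.98 above PECs (SE 0.19, adjusted p 0.00261), and 1.33 above on slide 1 alone. With median centring, which put the median of all genes at -0.57, this value was 0.51 and did not pass the test (adjusted p 0.182). The same scaling put the F4/80low values of Aco1, Ogdh and Sucla2 at -1.23, -1.41 and -1.02, all past the threshold.

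The fall of Mdh2 in F4/80high TAMs against PECs was small and at the threshold (log2 fold change -0.51, SE 0.19, adjusted p 0.0494). Within slide 1 it was -0.16 (adjusted p 0.653), and with a replicate block the call was lost (adjusted p 0.0812). With median centring it was -0.67 (adjusted p 0.0965), and with quantile normalization -0.82 (adjusted p 0.00239). The call was also lost with no filter (adjusted p 0.0855), with the 2 groups fitted alone (adjusted p 0.0544) and without PEC replicate 2, PEC replicate 3 or any one F4/80high array (adjusted p 0.0878 to 0.16).

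The remaining enzymes and subunits of the cycle were counted in the same way. Of 11 such genes, all tested, 7 were lower and none higher in F4/80high TAMs against PECs, with a median of -0.68. The shares over all genes were 28% lower and 25% higher. Suclg1, the alpha subunit of succinyl-CoA ligase, fell by 1.26 (SE 0.19, adjusted p 0.000448). Mdh1, the cytosolic malate dehydrogenase, fell by 1.08, and Idh3b, a regulatory subunit of the NAD-dependent isocitrate dehydrogenase, fell by 0.85. Within slide 1 these last values were -0.96 (adjusted p 0.0887) and -0.60 (adjusted p 0.174).

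Of the 11, 3 were higher and 1 was lower in F4/80low TAMs than in PECs, where 22.7% of all genes were called higher and 29.2% lower. Idh3g, another subunit of the NAD-dependent enzyme, rose by 0.81 (adjusted p 0.00474) and Dlst, the E2 subunit of the 2-oxoglutarate dehydrogenase complex, by 0.47 (adjusted p 0.0391), while Suclg1 fell by 0.52 (adjusted p 0.0399). With median centring Idh3g was at 0.33 and Dlst at -0.0015, neither past the threshold, and on slide 1 alone none of these 3 passed (0.85, 0.66 and -0.38). Suclg1 also missed the threshold with a replicate block (adjusted p 0.0659) and without PEC replicate 2 or 3 or F4/80low replicate 2 or 3 (adjusted p 0.0681 to 0.146). Dlst missed it with normexp correction (0.28), with a replicate block (adjusted p 0.0604) and without any one PEC array or F4/80low replicate 1 or 2 (adjusted p 0.0545 to 0.111).

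Between the subsets, 8 of the 11 were lower in F4/80high TAMs and none was higher, with a median of -0.77. The shares over all genes were 14% lower and 18.6% higher. Idh3g was at 5.51, 5.05 and 5.02 on the F4/80high arrays and at 6.50, 6.36 and 6.33 on the F4/80low arrays, beside 5.55, 5.54 and 5.68 in PECs. Its F4/80low arrays lay above all others. The log2 fold change between the subsets was -1.20 for Idh3g (SE 0.18, adjusted p 0.001), -1.35 for Mdh1 and -1.32 for Idh3b. The 3 that did not pass were Suclg2, Dlst and Dld, named after their values were seen.

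**Figure D4:**
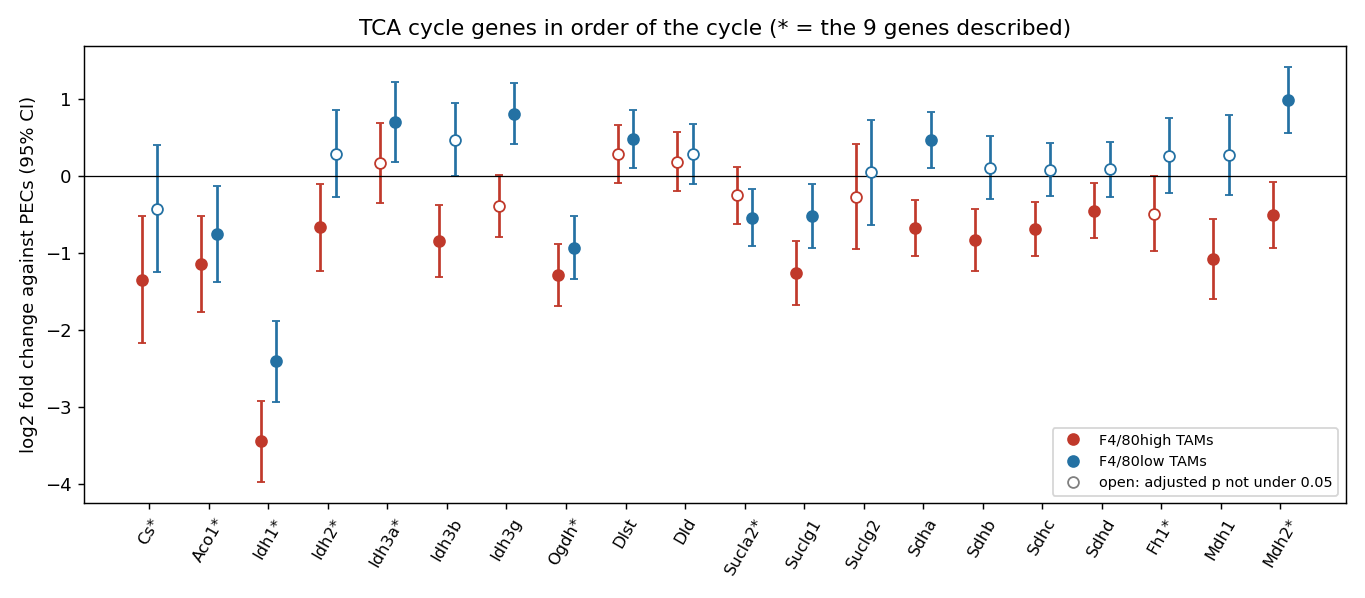
Log2 fold change against PECs (y axis, with 95% confidence intervals) of the 9 described genes, marked by asterisks, and 11 further genes of the cycle, in order of their reactions; open points have an adjusted p that is not under 0.05. Idh1 is farthest from 0 in either subset, no gene is called higher in F4/80high TAMs, and Mdh2 is the highest point in F4/80low TAMs at 0.98.

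Genes that bring pyruvate into the cycle were called in both directions. Of 12 tested, 6 were lower and 1 was higher in F4/80high TAMs against PECs, where 53.1% of all genes were called. In F4/80low TAMs 3 were lower and 3 higher, where 51.9% of all genes were called. These counts lie near the shares over all genes. Pdp1, a phosphatase that activates pyruvate dehydrogenase, fell by 2.76 and 3.14 in F4/80high and F4/80low TAMs (adjusted p 8.34e-06 and 6.21e-06). Pdk2, a kinase that inactivates the same enzyme, fell by 2.37 and 1.63 (adjusted p 0.000412 and 0.00394), and by 1.05 and 0.80 with normexp correction. Dlat, the E2 subunit of the complex, fell by 1.12 in F4/80high TAMs (by 0.64 with normexp correction), and Mpc1, a subunit of the mitochondrial pyruvate carrier, fell by 1.15 in F4/80low TAMs. Between the subsets 6 were lower and 1 was higher in F4/80high TAMs, where 14% of all genes were called lower and 18.6% higher. Among the former were Pdk1 (-1.21, and -0.61 with normexp correction), Mpc2 (-1.06) and Pdha1 (-1.04, and -0.69). None of the 3 passed with median centring (-0.89, -0.75 and -0.73).

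A further list held 13 tested genes, for enzymes and carriers that draw from or refill the cycle and for iron regulatory protein 2 (Ireb2). Of these, 6 were lower in either subset against PECs. In F4/80high TAMs 2 were higher (Acod1 and Ireb2), and in F4/80low TAMs 1 was (Acod1). Of all genes, 53.1% and 51.9% were called in these comparisons. Acod1, which turns cis-aconitate from the cycle into itaconate, was at -0.12, 1.26 and 1.37 in PECs, 9.87, 9.73 and 9.66 on the F4/80high arrays, and 8.50, 8.64 and 7.88 on the F4/80low arrays. It was the largest difference of the list, at 8.92 and 7.51. Slc25a13, the mitochondrial aspartate/glutamate carrier citrin, fell by 2.74 in F4/80high TAMs (adjusted p 4.98e-06) and fell by 2.36 in F4/80low TAMs (adjusted p 1.6e-05). D2hgdh, which oxidises D-2-hydroxyglutarate to 2-oxoglutarate, fell by 1.74 in F4/80high TAMs (adjusted p 0.00013), and by 0.67 with normexp correction. It was well above background on 2 of 3 F4/80high arrays. Slc25a1, the mitochondrial citrate carrier, fell by 1.33 in F4/80low TAMs (adjusted p 0.00167). Acly, which splits citrate in the cytosol, passed no test at its brightest probe, but its second probe gave 0.67 in F4/80low TAMs against PECs and -1.01 between the subsets (adjusted over probes, 0.0367 and 0.00951).

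Between the subsets Acod1 was higher in F4/80high TAMs by 1.41 (adjusted p 0.0191), a call lost without F4/80high replicate 1 or 2 or F4/80low replicate 3 (adjusted p 0.0538 to 0.0622). Me2, the mitochondrial malic enzyme, stood at -0.84 (adjusted p 0.014). It missed the threshold without F4/80high replicate 2 (adjusted p 0.0502), with median centring (-0.52) and with normexp correction (-0.42). Ireb2, which encodes iron regulatory protein 2, was at 0.63 (adjusted p 0.0483), above background on 1 of 3 F4/80low arrays. Its call was lost with normexp correction (0.13), with the replicate block over the TAM arrays (adjusted p 0.0668) and without any one F4/80high array, F4/80low replicate 2 or F4/80low replicate 3 (adjusted p 0.0533 to 0.166).

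Among 12 tested genes of general mitochondrial content, 4 were lower and 1 higher in F4/80high TAMs against PECs, 2 lower and 1 higher in F4/80low TAMs, and 2 lower in F4/80high than in F4/80low TAMs, where 53.1%, 51.9% and 32.6% of all genes were called. Second probes of 2 genes counted as not passing did pass. That of Tomm40, a pore of the outer membrane, gave -0.62 and -0.63 against PECs (adjusted over probes, 0.0274 and 0.028). That of Tfam, a mitochondrial transcription factor, gave 0.64 in F4/80high TAMs against PECs and 0.77 between the subsets (adjusted over probes, 0.0164 and 0.0115). Polg went the other way. It was counted as lower in F4/80high TAMs against PECs, but its second probe missed the threshold there (-0.64, adjusted over probes, 0.0528). Ppargc1b, a coactivator of mitochondrial genes, was not well above background in PECs and was at least 2.99-fold higher in F4/80high and at least 7.13-fold higher in F4/80low TAMs. Its relative Ppargc1a was not well above background in the TAMs and was at least 1.53-fold and 1.73-fold lower there. The bounds of both genes hold for the reported processing only. Over the alternatives the smallest log2 fold changes of Ppargc1a were -0.22 and -0.16, and 1 of 15 lost the call in each comparison. Ppargc1b kept its calls, but its value in F4/80high TAMs was as low as 0.46.

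The bounds for both coactivators set the dim group at the lowest signal well above background on each array. Vdac2, a channel of the outer membrane, fell by 1.58 and 1.13 in F4/80high and F4/80low TAMs. Within slide 1 these values were -1.35 and -0.90, neither past the threshold, and the F4/80low call was lost without PEC replicate 2 or 3 (adjusted p 0.0505 each). Between the subsets Ppargc1b gave -1.25 (adjusted p 0.0115), and -0.51 with normexp correction. Vdac1 gave -0.57 (adjusted p 0.0308), which was lost with the replicate block over the TAM arrays (adjusted p 0.0549) and without F4/80high replicate 2 or 3 or F4/80low replicate 1 or 2 (adjusted p 0.0776 to 0.108).

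For the 3 members with the widest range of group means, the genes nearest in pattern were found by the root mean square difference of log2 levels over the 9 arrays, after each gene was centred on its mean. Nearest to Idh1, whose group means span 3.45, were Tlr13 (0.25), Engase (0.26) and Echs1 (0.28). Mdh2, with a span of 1.49, was followed by 4930481A15Rik (0.13), Pgbd1 (0.13) and Uqcr10 (0.15). The genes nearest to Cs, with a span of 1.35, were Scamp5, Arhgef6 and Naa60 (0.24 each). Echs1 is the short-chain enoyl-CoA hydratase of fatty acid oxidation, and its mean level was 4.77 in PECs, 1.86 on F4/80high and 2.61 on F4/80low arrays. Uqcr10 is a subunit of respiratory complex III, at 6.01, 5.38 and 6.78 in the same order.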

How the data were processed

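Per the file headers, each deposited scanner file gives spot intensity on a linear scale, background-subtracted and detrended by Agilent Feature Extraction 10.5.1.1. A value table deposited by the authors gives log2 values of 9703 probes, with column medians of 8.26 to 8.35. Its normalization and filter are not given in the sources used here, and it covers 7 of the 9 members, so it served as an alternative. Outlier spots were left out, log2 intensity was taken relative to each array's 75th percentile, and spots of a probe were averaged. A probe was kept if all 3 arrays of some group showed it well above background (21199 probes), and the brightest stood for its gene. Symbols came from the RefSeq table (26525 of 55681 probes matched) or the file. All 9 arrays were fitted with limma 3.58.1 (lmFit, eBayes) in R 4.3.3, with 3 group means and two-sided contrasts. The fit was tested on simulated data.

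Genes named are the 9 members, Acod1, up to 3 called genes of largest fold per list and comparison, and the nearest genes in pattern. Some list genes are not reported here and are left out of the lists' counts. Members, lists and rules were chosen with earlier results of these data known. Same-numbered F4/80high and F4/80low arrays deviated together (residual correlation across genes 0.234, 0.171 and 0.134, and at most 0.0225 for other numbers). Deviations from a group's mean cancel within the group, which by itself lowers the values for other numbers. The reported calls come from the unpaired fit, and fits with the replicate number as a block were alternatives. For PEC arrays the same-number values ran from -0.0963 to 0.0911. Alternatives were median centring, quantile normalization, normexp, no filter, the mean of probes, slide, replicate block, 2-group fits, the value table and leaving out each array. The block over the 6 TAM arrays and the marker sum without Il7r were added after the data were seen. Lyz2, Il7r, Zbtb46, Tomm40, Tfam, Polg and Acly were named after their values were seen. So were Sdha, Sdhb, Sdhc, Sdhd, Pdhb, Pdhx and Pdk3. Mertk, Ngp, Retnlg, Cxcr2, Mmp8, Cd3d and Cd3g are also named outside the rule above, by the groups where they were not above background.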

Additional observations from a re-analysis of the deposited data

Results flagged for a closer look

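These genes were picked out because their difference from PECs was not the same in the TAM subsets. The test was limma's, of F4/80high against F4/80low TAMs, and the log2 fold change between the subsets is given for each. The search left out the marker genes and some genes of the other lists, so it does not hold every gene that passed. Of the members these were Mdh2 (-1.49), Idh1 (-1.04), Idh2 (-0.95) and Fh1 (-0.75). Of the other genes of the cycle that were searched they were Mdh1 (-1.35), Idh3b (-1.32), Idh3g (-1.20) and Suclg1 (-0.74). Sdha (-1.14), Sdhb (-0.94), Sdhc (-0.77) and Sdhd (-0.54) were not searched but also passed the test. The same held for Dlat (-0.96), Pdhb (-0.71), Pdk3 (-0.62) and Pdhx (0.83) among the genes that bring pyruvate into the cycle. The genes picked out of the remaining lists were Acod1 (1.41), Ppargc1b (-1.25), Pdk1 (-1.21), Mpc2 (-1.06), Pdha1 (-1.04), Me2 (-0.84), Ireb2 (0.63) and Vdac1 (-0.57). Of the genes picked out by the search, Acod1 and Ireb2 were higher in F4/80high TAMs, and the others were lower there.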

How the results depend on the processing

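Counts of calls over all genes were within 1.5 times of the reported ones except that a slide block and slide 1 alone gave 5626 and 4887 genes in F4/80high TAMs against PECs and 4902 and 4123 in F4/80low TAMs, and no filter gave 14380 in F4/80low TAMs, with 36483 genes tested. The same slide settings left 3 and 2 members, and 3 and 3. Between the subsets median centring left 1 member and quantile normalization gave 7. Leaving out each array gave 4 to 6, 3 to 4 and 2 to 4 members in the 3 comparisons, and 7010 to 8563, 6599 to 8463 and 3916 to 4978 genes. Median centring put the median log2 fold change of all genes at -0.16, -0.57 and 0.40, and the share of called genes that were higher at 39.6%, 22.1% and 75.8%, against 47.2%, 43.8% and 57.1% as reported. With normexp the shares were 44.7%, 38.8% and 64.2%.

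Of the called values, 1 changed sign: Dlst in F4/80low TAMs against PECs, at -0.0015 with median centring. Uncalled values that did were, in F4/80high TAMs against PECs, Idh3a (-0.13 with normexp, and -0.046 without F4/80high replicate 3 in a range up to 0.27 over the arrays left out). In F4/80low TAMs against PECs, with median centring, they were Idh2 (-0.19), Fh1 (-0.21 and -0.16 at its probes), Mdh1 (-0.20) and Idh3b (-0.0045). Idh2 was also at -0.047 with normexp, and the third Ogdh probe at 0.14 with quantile normalization, 0.24 without PEC replicate 1 and 0.049 without F4/80low replicate 1, in a range down to -0.38. Between the subsets Ogdh was at 0.11 with the mean of its probes, and with median centring its second probe was at 0.21 and Dlst at 0.12. The causes were not tested. Of 1215 alternative values of single genes, 1031 kept direction and side of the threshold.

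A replicate block gave 8581, 8345 and 5188 genes and 5, 6 and 4 members. The block over the 6 TAM arrays gave 4877 genes and 5 members. Blocks changed no other call than those given with Cs, Ogdh, Fh1, Mdh2, Dlst, Suclg1, Ireb2 and Vdac1. Depth here is signal over background, and 2 of 3 F4/80high arrays were not well above it for Aco1 and 1 of 3 for Idh1.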
